A study of Homo sapiens with 28 samples.

Results

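The 1334 regions described here are the broad H3K4me3 promoters of untreated EPC2 cells. They were chosen by a rule on 1 chromatin immunoprecipitation (ChIP) library: every region that the authors called in the untreated H3K4me3 library, annotated as promoter and spanning at least 3000 bases. The rule took 10.3% of the 12964 promoter regions in that library, out of 19605 regions in all. Width and annotation therefore chose the members, and their untreated widths and H3K4me3 enrichments are a description with no test. EPC2 is an immortalised line of human esophageal epithelial cells. All groups were seeded at high confluency in keratinocyte serum-free medium (KSFM). Treatment lasted 6 h and consisted of IL-13 (100 ng/ml), of vitamin D (100 nM) or of the 2 combined, beside cells that received neither. IL-13, a cytokine of allergic inflammation, signals to the nucleus by STAT6, and the vitamin D receptor (VDR) is the nuclear receptor for active vitamin D. The 28 samples comprise 12 RNA samples, 3 for each of the 4 treatments, and 16 ChIP libraries with 1 library per antibody and treatment. The histone marks H3K4me3, H3K9ac and H3K27ac have a library for each treatment. STAT6 has an untreated and an IL-13 library, and VDR an untreated and a vitamin D library. Neither the labels nor the headers say which form of vitamin D was used or whether RNA samples came from separate cultures. RNA values are 1 RPKM (a read count scaled to gene length and library size) per treatment, so no spread between samples can be shown.

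H3K4me3 is the trimethylation of lysine 4 of histone H3. It is laid down around transcription start sites by SET1 and MLL complexes, which are drawn to unmethylated CpG islands, and it is removed by KDM5 demethylases. Most promoters carry a narrow block over the first nucleosomes of the gene, while a minority carry a block that spreads over several kilobases. Such broad blocks are known for marking genes of cell identity and some tumour suppressors, and H3K9ac and H3K27ac are acetylation marks of active promoters.

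The promoters of 6 genes show the range of sequence under these regions. The 250 bases before the start of each gene are from RefSeq on GRCh38.p14, written 5′ to 3′ on the gene's strand, with every CG in capitals. JUNB, SOCS1 and RUNX1 have CpG-rich promoters, and each belongs to a gene group described below. JUNB encodes an AP-1 subunit, SOCS1 an inhibitor of cytokine receptor signalling, and RUNX1 a Runt-family transcription factor.
JUNB: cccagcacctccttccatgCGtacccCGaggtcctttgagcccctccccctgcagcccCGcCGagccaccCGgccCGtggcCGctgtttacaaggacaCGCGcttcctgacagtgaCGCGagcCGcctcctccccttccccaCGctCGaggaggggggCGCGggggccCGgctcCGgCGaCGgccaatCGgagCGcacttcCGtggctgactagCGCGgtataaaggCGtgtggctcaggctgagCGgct
SOCS1: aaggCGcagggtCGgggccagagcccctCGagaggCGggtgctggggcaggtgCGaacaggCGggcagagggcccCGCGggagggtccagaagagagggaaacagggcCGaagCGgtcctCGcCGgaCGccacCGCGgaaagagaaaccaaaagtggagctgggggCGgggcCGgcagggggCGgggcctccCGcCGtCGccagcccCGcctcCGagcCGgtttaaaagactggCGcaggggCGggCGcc
RUNX1: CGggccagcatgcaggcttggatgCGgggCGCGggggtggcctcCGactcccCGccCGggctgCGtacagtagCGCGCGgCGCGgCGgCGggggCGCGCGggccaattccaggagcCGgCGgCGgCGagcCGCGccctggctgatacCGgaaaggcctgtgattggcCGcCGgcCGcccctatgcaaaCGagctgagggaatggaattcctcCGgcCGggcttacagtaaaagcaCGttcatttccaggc
The JUNB window (chr19:12791236-12791485, plus strand) holds 27 CG, a TATAAA 31 bases before the start and a CCAAT 67 bases before it. The SOCS1 window (chr16:11256205-11256454, minus strand) also holds 27 CG and carries GGGCGG 87, 71 and 11 bases before the start. The RUNX1 window (chr21:34888700-34888949, minus strand) holds 32 CG, the most of the 6, and no TATAAA.

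The other windows are poorer in CG, although the H3K4me3 regions of their genes also exceed 3000 bases. BCL6 encodes a transcriptional repressor, INHBA the beta A subunit of activin and inhibin, and COL17A1 a collagen of hemidesmosomes.
BCL6: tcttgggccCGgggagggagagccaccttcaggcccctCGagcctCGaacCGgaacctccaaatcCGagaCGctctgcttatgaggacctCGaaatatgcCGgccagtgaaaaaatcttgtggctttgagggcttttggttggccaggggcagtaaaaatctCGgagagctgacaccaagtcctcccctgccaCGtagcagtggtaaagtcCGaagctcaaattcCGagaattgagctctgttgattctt
INHBA: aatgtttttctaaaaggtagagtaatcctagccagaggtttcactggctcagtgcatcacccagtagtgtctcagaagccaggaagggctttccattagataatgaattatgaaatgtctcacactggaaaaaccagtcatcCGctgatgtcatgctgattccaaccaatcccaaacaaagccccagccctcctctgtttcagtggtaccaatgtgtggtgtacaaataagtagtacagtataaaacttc
COL17A1: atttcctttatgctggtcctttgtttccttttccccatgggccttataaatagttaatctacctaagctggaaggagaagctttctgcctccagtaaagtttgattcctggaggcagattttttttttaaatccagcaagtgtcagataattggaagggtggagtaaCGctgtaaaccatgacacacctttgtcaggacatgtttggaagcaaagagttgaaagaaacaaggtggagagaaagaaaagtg
The BCL6 window (chr3:187745469-187745718, minus strand) holds 12 CG and the STAT-type sequence TTCCGAGAA 28 bases before the start. INHBA (chr7:41703091-41703340, minus strand) and COL17A1 (chr10:104085881-104086130, minus strand) hold 1 CG each. INHBA has a TATAAA 11 bases before the start, and COL17A1 has one 206 bases before it.

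CpG-rich sequence was the rule among the members, with little difference from narrower promoters. A RefSeq promoter was matched for 1230 of the 1504 protein-coding genes assigned to members (81.8%) and for 9028 of 11013 genes of other promoter regions (82.0%). The median was 23 CG per 250 bases for member genes (quartiles 16 and 31), 21 for genes of other promoter regions and 11 for all 27305 promoters of the table. The ratio of observed to expected CG was 0.863, 0.825 and 0.556 in the same order. Windows with at most 5 CG made up 6.50% of member genes, 6.59% of genes of other regions and 38.7% of all promoters, so INHBA and COL17A1 are in the minority.

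Short promoter motifs were searched on both strands, and a match is a description of letters only. TATAAA stood in 7.48% of member windows, 4.77% of windows of other regions and 11.1% of all promoters. GGGCGG, the GC box, stood in 73.8%, 68.8% and 42.3%. CCAAT stood in 36.8%, 35.3% and 33.0%. CCGGAAG, an ETS-type site, stood in 11.3% of member windows, 17.0% of windows of other regions and 8.82% of all. The AP-1 site TGAGTCA (2.76%, 2.37% and 4.16%), TTCNNNGAA (4.23%, 5.64% and 6.78%) and the STAT6-type site with 1 more base in its spacer (3.09%, 3.99% and 5.35%) were uncommon in each set. The YY1 site stood in 2.20%, 1.73% and 1.37% and the NRF1 site in 1.95%, 2.06% and 1.13%. A vitamin D response element of the DR3 type was found in 0%, 0.0554% and 0.0659%. The GC box itself contains a CG. All shares are for the 250 bases before the start and leave most of each H3K4me3 region unread.

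The members were 3001 to 11398 bases wide, with a median of 3498.5 and quartiles of 3206 and 4051. The other 11630 promoter regions had a median of 1739 bases. Members of 5000 bases or more numbered 126, or 9.45%. The limit of 3000 bases cut through a continuous range. The KAT6B, CHCHD4/TMEM43 and MAGI2 regions just inside spanned 3001 bases. HSP90AB1 and LUC7L2 with 2999 bases and ARL6IP5 with 2998 lay just outside. Broad regions were nearly all promoters: of 1385 regions of at least 3000 bases, only 17 were annotated upstream, 14 exonic, 12 intergenic and 8 intronic.

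The extra width lay on both sides of the start, with more of it inside the gene. Among 968 members assigned to a single transcript, the start lay inside the region in 957 (98.9%). These reached a median of 1103 bases upstream and 2475 bases downstream, against 580 and 1133 bases for other promoter regions. The longer side was downstream in 84.5% of members and 85.6% of other regions, so the asymmetry was of like frequency in both. Regions that took in several genes were more frequent among the members: 366 (27.4%) were assigned to at least 2 genes, against 13.6% of other regions.

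A few compact genes lay wholly within their H3K4me3 region, namely 33 of the 968 members (3.41%) against 0.666% of other regions. JUNB (hg19 chr19:12899734-12904929) had a region of 5195 bases around a transcript of 1816 bases. ACTG1, cytoplasmic gamma actin, had 6682 bases around 2896, and ADM, the peptide hormone adrenomedullin, had 6188 around 2282. ARF6, a small GTPase of membrane traffic, had 5242 around 4037. SOCS1 had 3422 bases around 1766. For such genes the mark cannot be divided into promoter and gene body.

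The widest region belonged to TNRC18 (hg19 chr7:5458680-5470078), a large chromatin-associated protein, with 11398 bases, of which 6901 lay upstream of the start. The next were the shared region of S100A14 and S100A16, calcium-binding proteins of epithelia (chr1:153580861-153589185, 8324 bases), and MEIS1, a homeodomain factor (8191). RUNX1 (chr21:36255904-36264092) had 8188 bases and TFAP2A, the AP-2 alpha factor of surface ectoderm, 7947. CKS1B/SHC1 had 7870, CCND2, cyclin D2, 7767, and ZFP36L1, an mRNA decay factor, 7687. NR3C1, the glucocorticoid receptor, had 7674, FLRT2 7485, INHBA 7326 and IRF2BP2 7173. MEIS1, RUNX1, TFAP2A, NR3C1 and IRF2BP2 encode transcriptional regulators.

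The position of the start within these regions varied. In ZFP36L1 only 238 bases lay upstream and 7449 downstream, and in INHBA (chr7:41735589-41742915) 209 and 7117. CCND2 had the reverse order, with 5082 bases upstream and 2685 downstream. The untreated H3K27ac library covered 94.7% to 100% of each of the 12 regions, and H3K9ac covered 53.9% (INHBA) to 97.5% (S100A14/S100A16).

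**Figure D1:**
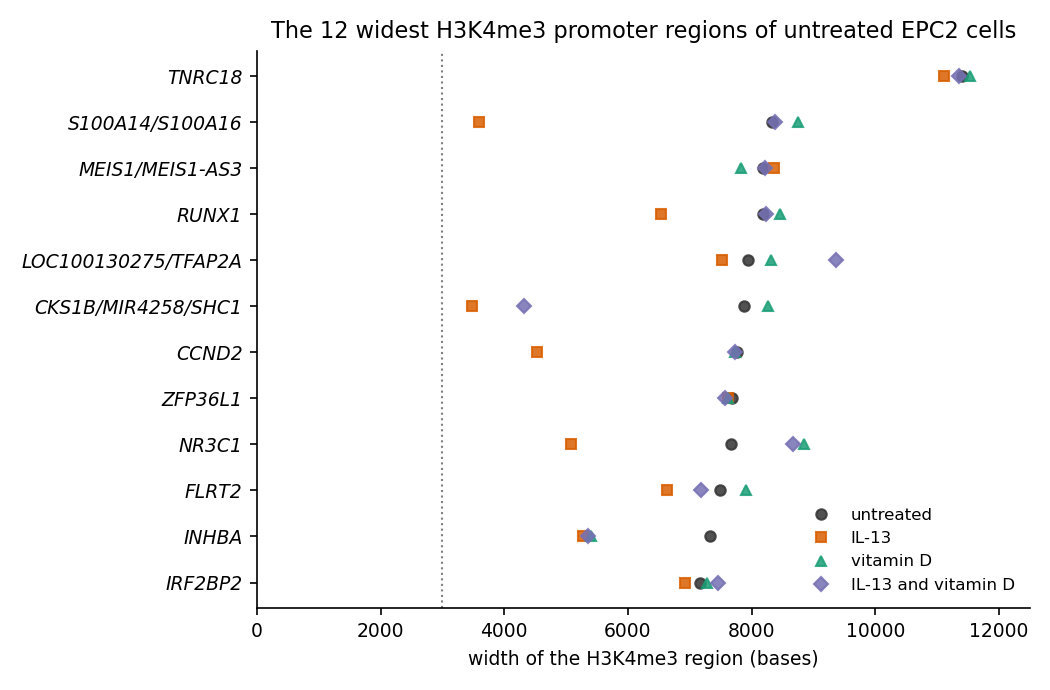
Width in bases of the 12 widest members (rows, by assigned gene) in the untreated, IL-13, vitamin D and combined H3K4me3 libraries, 1 library each; a treated value is the widest single region that overlaps the member, and the dotted line marks 3000 bases. TNRC18 lies between 11118 and 11531 bases in all 4 libraries, whereas S100A14/S100A16, CKS1B/SHC1 and CCND2 drop to 3595, 3485 and 4530 bases with IL-13, where the region is divided into several.

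The members were assigned 1781 genes, and 1767 of them had an RNA row. They made up 7.51% of the 23529 genes of the RNA tables and 13.9% of the 11248 genes with at least 1 RPKM in untreated cells. The gene lists below were chosen with earlier results of these data known, so their shares are descriptions. AP-1 and immediate early genes had a broad promoter in 25 of 34 cases (73.5%). Squamous epithelial transcription factors followed with 23 of 35 (65.7%), feedback inhibitors of signalling with 22 of 38 (57.9%) and junction and adhesion genes with 19 of 33 (57.6%). Tumour suppressors stood at 15 of 40 (37.5%), growth factor ligands and receptors at 12 of 36 (33.3%), and core promoter and elongation factors at 8 of 28 (28.6%).

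Among the squamous factors, TP63, the master regulator of stratified epithelia, had a region of 3813 bases. KLF4 and KLF5, Krüppel-like factors of epithelial differentiation and growth, had 5124 and 5181. BNC1, basonuclin 1 of basal keratinocytes, had 5611 and EHF, an epithelial ETS factor, 5028. GRHL2 and GRHL3, grainyhead factors of the epithelial barrier, had 4061 and 4177. The listed factors that were not members include SOX2 (2349 bases), ZNF750 (1737) and PAX9 (646), while TRPS1 missed the limit by 2 bases.

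The AP-1 group held FOSL2 (6684 bases), IER2 (6690), KLF6 (6189), JUN (5043), JUNB (5195), JUND (3769) and FOS (3773). The feedback inhibitors held DUSP5 (5837), DUSP7 (5501) and DUSP4 (5457), phosphatases that switch off MAP kinases, SKI (5511) and SMAD7 (5203), which restrain TGF-beta signalling, and SPRY1, SPRY2 and SPRY4, Sprouty inhibitors of receptor kinases (3707, 3818 and 4172). Junction genes included DSP, desmoplakin (5436), PKP3, plakophilin 3 (5713), ITGB1, integrin beta 1 (5945), and LAMB3, a laminin chain of the basement membrane (5391). PTCH1, the Hedgehog receptor, led the tumour suppressors with 6981, followed by FAT1, an atypical cadherin, with 6337. CDKN1A, which encodes the cell cycle inhibitor p21, had 4054.

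The machinery of H3K4 methylation was itself only partly in the set. Of the genes of the writer complexes, enzymes and other subunits alike, 7 of 17 were members. They were SETD1B (5908 bases), HCFC1 (4289), MLL3 (3574), WDR82 (3416), MLL (3415), KDM6A (3287) and WDR5 (3250). None of the 4 erasers was a member, and KDM5A, KDM5B, KDM5C and KDM2B ranged from 2026 to 2780 bases. Readers were members in 4 of 13 cases, namely ING1, ING2, PHF2 and DIDO1.

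Structural keratins and cornified envelope genes stood at the other end, with 1 member among 34 (2.94%), although their median level of 156 RPKM was high. KRT5, the basal keratin, was that member, at 3271 bases and 10444 RPKM in untreated cells. KRT6A had 16009 RPKM with a region of 1724 bases, KRT17 14930 RPKM with 2774 and KRT16 6913 RPKM with 551. KRT14, the partner of KRT5, had 7430 RPKM with 2793 bases. No promoter region at all was called at 18 of the 34, among them KRT13 and KRT4. Among these keratins, very high RNA thus went with regions of varied width. KRT17 and KRT14 missed the width limit but lay above the third quartile of all promoter regions, 2371 bases. KRT6A lay below their median of 1828 bases, and KRT16 below their first quartile of 1321. The KRT5 call also depended on region joining, because a further region of 2891 bases lay 99 bases away in untreated cells, and in the treated libraries a single region spanned 6345 to 6862 bases.

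Beside 7.51% of all genes and 13.9% of genes at 1 RPKM or more, known IL-13 response genes and VDR targets had a broad promoter in 3 of 27 (11.1%; SOCS1, PKP2 and HAS3) and 5 of 34 (14.7%; THBD, CDKN1A, DUSP10, LRRC8A and ASAP2). No fibroblast, leukocyte or endothelial marker had a broad promoter, in 10 genes each. Their summed RNA over the 4 treatments was 6.12 to 15.5, 0.403 to 0.600 and 0.724 to 4.06 RPKM, against 31776 to 36333 for the 10 esophageal epithelium markers. COL1A1 gave 15.2 of the fibroblast sum in untreated cells and 5.84 under both agents, and VWF gave 0.514 and 3.15 of the endothelial sum. THY1, CD3D, MS4A1, FCER1A and MPO were listed at 0 in all 4 groups, and among the epithelial markers EPCAM alone stayed under 1 RPKM, at 0.710 in untreated cells.

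**Figure D2:**
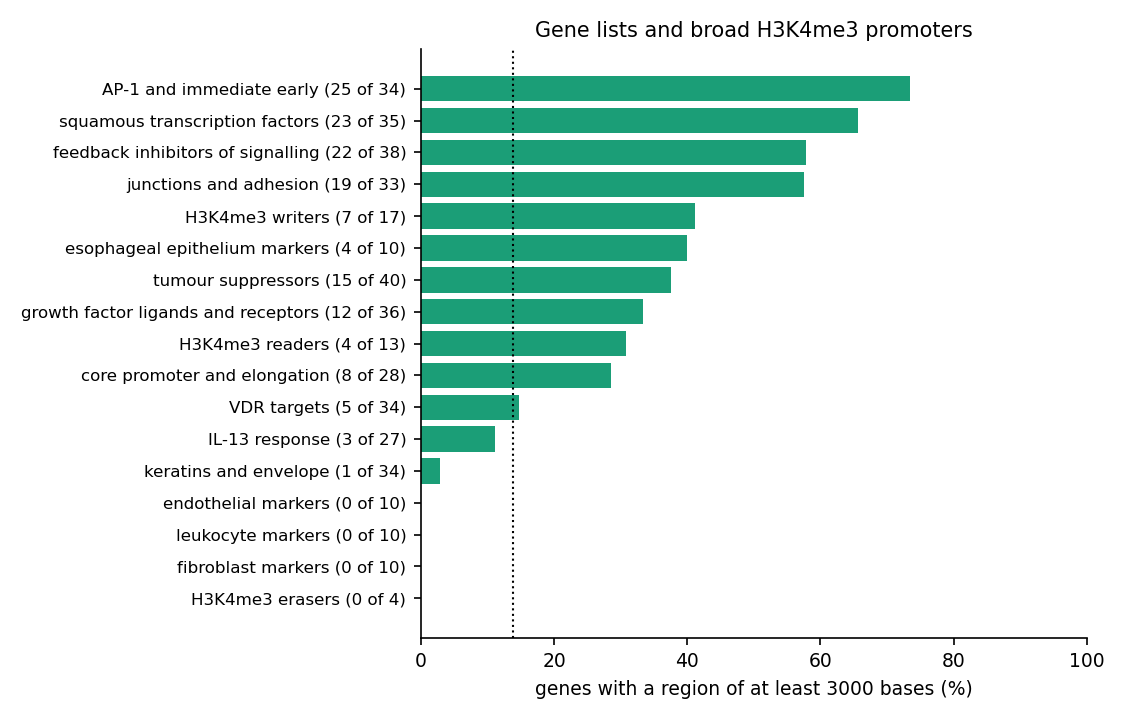
Share of the genes of each list, in percent of its genes in the RNA tables, that were assigned to an H3K4me3 promoter region of at least 3000 bases in untreated cells; counts are in brackets, and the dotted line is the share among all genes with at least 1 RPKM (13.9%). AP-1 and immediate early genes reach 73.5% at the top, and keratin and envelope genes 2.94%, with no member among the erasers or the 3 lists of other cell types.

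Genes of the members were more highly expressed than genes of narrower promoters. Their median was 13.3 RPKM in untreated cells (quartiles 3.96 and 36.7), against 5.38 for genes of other promoter regions and 0 for genes with no promoter region. At least 1 RPKM was reached by 88.4%, 74.6% and 7.19% of these genes. Genes of regions of 2000 to 2999 bases stood at 89.0%, level with the members, and those of regions under 1000 bases at 23.6%. The median of member genes was 13.5 in the IL-13 group, 12.9 in the vitamin D group and 13.3 under both agents. RNA level rose with width from 0.0894 RPKM for regions under 1000 bases through 4.70, 9.15 and 12.9 to 16.3 RPKM for 5000 bases and over. Across the 13820 genes with a promoter region, Spearman's correlation of width and RPKM was 0.438, but within the 1767 member genes it was 0.0974. Genes of 1 region share its width, and all values come from 1 library and 1 RPKM column.

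**Figure D3:**
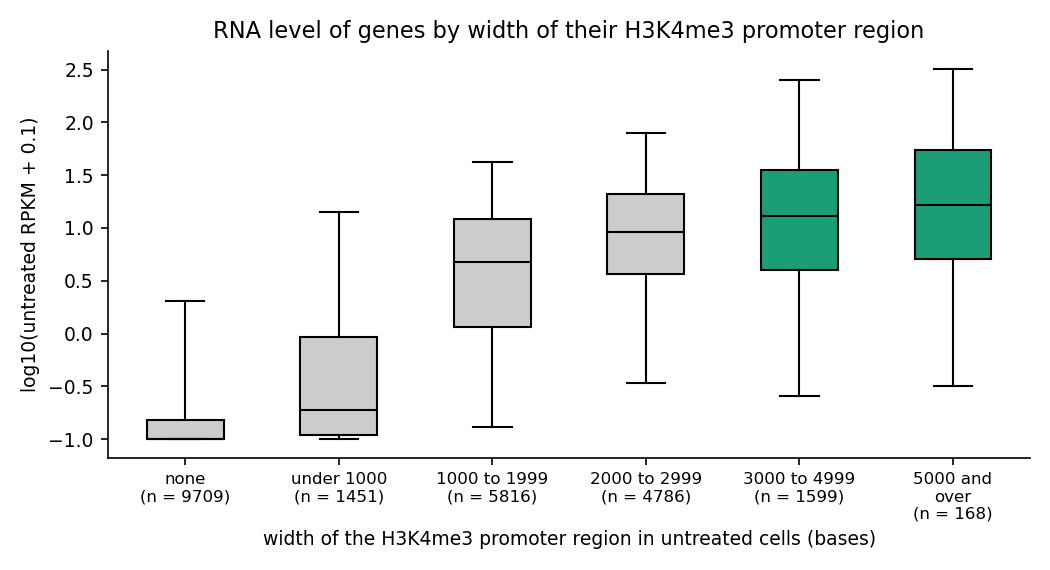
Untreated RNA level, as log10 of RPKM plus 0.1, for genes grouped by the width of their H3K4me3 promoter region; boxes give the quartiles and the median, whiskers the 5th and 95th percentiles, n the number of genes, and the members are in green. Medians rise from 0.0894 RPKM under 1000 bases to 16.3 RPKM at 5000 bases and over, and the boxes of the 3 widest groups overlap.

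The members held 51 of the 100 genes with the highest untreated RPKM and 30.4% of all summed RPKM. KRT5 led with 10444 RPKM untreated, 10539 with IL-13, 9935 after vitamin D and 9265 under both agents. TPT1, a translationally controlled protein, followed with 2648 RPKM in untreated cells, S100A11 with 2331, GAPDH, a glycolytic enzyme, with 2163, and TMSB10, an actin-binding thymosin, with 2017. Where a region was assigned to 1 gene, the gene's median was 19.0 RPKM (956 genes). Where it was assigned to several, the median was 7.55 (813 genes).

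A small set of broad promoters had almost no RNA. In 36 members (2.70%) every assigned gene stayed under 1 RPKM in all 4 groups, against 20.4% of other promoter regions. The other regions include those under 1000 bases, where only 23.6% of genes reached 1 RPKM in untreated cells. The widest were BCL11A, a zinc finger repressor, with 6751 bases and at most 0.694 RPKM, and LHX1, a LIM homeodomain factor, with 5418 bases and at most 0.629. NR4A3, an orphan nuclear receptor and immediate early gene, had 4217 bases and at most 0.0109 RPKM. HES7, a basic helix-loop-helix repressor, and LOC100132356 completed the 5 widest with 4172 and 3956 bases. Several inducible genes of the lists were among the 36, namely EGR2, FOSB, NR4A2, SPRY1 and SMAD6, beside HOXA2, ISL1 and histone genes. Their untreated H3K9ac covered a median of 43.3% of the region, against 66.2% at the 1288 members with RNA. H3K27ac covered 92.9% and 98.1%, at median fold enrichments of 16.5 and 24.6. H3K4me3 enrichment was 39.1 and 50.03.

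The set was largely retained after treatment, by calls made in single libraries. With vitamin D 1240 of the 1334 members (93.0%) still spanned at least 3000 bases, and with both agents 1241 (93.0%). The IL-13 library kept 1006 (75.4%). All 4 libraries shared 990 members (74.2%), and 122 of the 126 members of 5000 bases or more stayed above the limit throughout. Members were chosen as wide in the untreated library, so a fall below the limit elsewhere is given as a description. In all, 43 fell below the limit in every treated library, and their untreated median was 3075 bases.

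The IL-13 library differed as a whole. It held 1087 promoter regions of at least 3000 bases, against 1334 untreated, 1514 with vitamin D and 1536 with both. Its median local background under the regions, an estimate from pileup and fold enrichment, was 0.378 fragments, against 0.459, 0.630 and 0.726. Members were divided into several regions in 278 cases (20.8%) with IL-13, 97 (7.27%) with vitamin D and 92 (6.90%) under both agents. When the divided pieces were summed, 1075, 1258 and 1256 members reached 3000 bases. The part of the background difference in the counts was not tested. The same number of widest regions in each library, which sets its own limit, held 85.1%, 87.0% and 86.4% of the members, so the IL-13 library was then close to the others.

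Changes of at least 1.5-fold in width were few. With IL-13, 48 members were narrower and 2 wider, where 7.54% and 2.34% of all promoter regions were. In 47 of those 48 the IL-13 library showed several regions in place of 1. In the vitamin D library 4 were narrower and 7 wider (2.49% and 5.65% of all promoter regions), and in the combined library 8 and 4 (3.24% and 4.86%). Between both agents and vitamin D alone, 6 were narrower and 4 wider (3.26% and 2.16%). Against untreated, a promoter region with no overlapping treated region was counted as narrower. With IL-13, 11142 of the 11630 other promoter regions were overlapped, and all 1334 members were. The members' median ratio to untreated was 0.955, 1.02 and 1.01, beside 0.946, 1.03 and 1.03 for other promoter regions.

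KRT5 and ZNF608, a zinc finger gene, were wider in all 3 treated libraries, ZNF608 going from 3271 bases to 5610, 7135 and 7358. At KRT5 the untreated width leaves out the further region of 2891 bases that lay 99 bases away. DUSP6, an ERK phosphatase, went from 3560 to 6373 with vitamin D and 5999 with both, but was 3473 with IL-13. The members that were narrowest in the treated libraries relative to untreated were FGFRL1, a decoy FGF receptor, with 3426 bases untreated and 1830, 1675 and 1798 after IL-13, vitamin D and both, and INHBA, with 7326 and 5266, 5399 and 5360. PCGF2, a Polycomb ring finger protein, followed with 4856 and 3453, 3648 and 3563, CCND1, cyclin D1, with 5913 and 4706, 4811 and 3622, and PGK1 with 3415 and 2780, 2840 and 2879. For these 5 the untreated library stood above each of the treated ones. At INHBA the summed width was 6336, 7387 and 6752 bases, so with vitamin D the region was divided but not shorter in sum.

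Acetylation was near universal at the members. In untreated cells H3K27ac overlapped 1334 of 1334, where 91% of all promoter regions were overlapped, and H3K9ac overlapped 1331 (99.8%), where 82.6% were. Narrower promoters of 2000 to 2999 bases were already at 99.9% and 99.3%, so presence of the marks did not set the members apart from them. In all 8 acetylation libraries 1325 members were marked. The 5 widest of the 9 exceptions were the histone gene regions HIST1H2BI/HIST1H3G and HIST1H2AM/HIST1H2BO, ANXA1, RGMB and PCDH10. EGR2 and DPF3 were also among the 9, and each lacked a call in 1 to 3 of the 8 libraries.

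H3K27ac covered a median of 98.0% of a member, against 91.4% of other promoter regions and 95.05% of those of 2000 to 2999 bases. The median fold enrichment was 24.2, 16.3 and 20.03 in the same order, so the class next in width lay close to the members. At 59.9% of members and 41.3% of other regions, the widest overlapping H3K27ac region was wider than the H3K4me3 region. Whole cover by H3K27ac was found at 516 of the 1334 members. H3K9ac was more broken, covering 65.5% of members, 48.3% of other regions and 60.1% of those of 2000 to 2999 bases, with a median of 3 separate regions per member. In the IL-13, vitamin D and combined libraries, H3K27ac covered a median of 85.7%, 89.1% and 87.9% of a member and overlapped 1333, 1333 and 1332 members (85.9%, 86.9% and 86.6% of all promoter regions). H3K9ac covered 61.9%, 64.9% and 62.6% and overlapped 1333, 1330 and 1333 (82.7%, 83.2% and 82.8%). The untreated H3K27ac library held 91881 regions in all, against 67183 to 72629 in the treated ones; its part in the higher cover was not tested.

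RNA responses are taken from the authors' deposited table for each comparison, at an adjusted p under 0.05 by a method that neither labels nor headers name. The 3 comparisons with untreated cells share the untreated samples, and the comparison of both agents with vitamin D shares samples with 2 of them. With IL-13, 666 of 1677 tested member genes were called (39.7%), where 26.3% of all tested genes were. Of these 267 rose (15.9%, background 12.3%) and 399 fell (23.8%, background 14%). With vitamin D, 864 of 1678 were called (51.5%, background 32.5%), with 507 rising (30.2%, background 17.5%) and 357 falling (21.3%, background 15.1%). Both agents against untreated called 781 of 1702 (45.9%, background 31.7%), namely 401 higher (23.6%, background 16%) and 380 lower (22.3%, background 15.7%). Both agents against vitamin D called 775 of 1667 (46.5%, background 33.2%), namely 349 higher (20.9%, background 16.4%) and 426 lower (25.6%, background 16.9%). At this width limit falls outnumbered rises in both comparisons where IL-13 was the agent that differed, and rises outnumbered falls with vitamin D.

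These responses were frequent but small. The median size of the log2 change was 0.11, 0.14, 0.15 and 0.14 in the 4 comparisons. It was 0.11, 0.12, 0.15 and 0.14 over all tested genes, and 0.10, 0.11, 0.13 and 0.13 for other promoter regions. Small changes were therefore not particular to the members. Changes of at least 2-fold were called in 0.656%, 1.25%, 2.23% and 1.08% of tested member genes, where 1.19%, 1.7%, 3.28% and 1.62% of all tested genes had one. Members were thus above the background in calls of any size and below it in large changes. Genes of other promoter regions had a 2-fold change in 0.875%, 1.38%, 2.54% and 1.22%, nearer to the members. Genes with no promoter region had one in 3.03%, 3.48%, 6.69% and 3.97%. For genes of regions of 5000 bases or more, 53.1%, 63.1%, 56.5% and 58.9% were called.

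The share called rose with RNA level, so the shares were also set side by side within bands of untreated RPKM. Between 1 and 3 RPKM, IL-13 called 20.4% of member genes and 20.8% of genes of other promoter regions, and vitamin D 25.8% and 27.5%. Between 30 and 100 RPKM the shares were 57.3% and 37.9% with IL-13 and 68.8% and 47.2% with vitamin D. At 100 RPKM or more they were 54.2% and 40.8%, and 72.1% and 61.8%. Members lay above other regions in the bands from 3 RPKM upward in all 4 comparisons, and below them under 1 RPKM. The balance of rises and falls also varied with level. At 100 RPKM or more, 24 member genes rose and 79 fell with IL-13, and 24 rose and 99 fell when it was added to vitamin D. Between 3 and 10 RPKM the counts were 65 and 62, and 89 and 60.

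**Figure D4:**
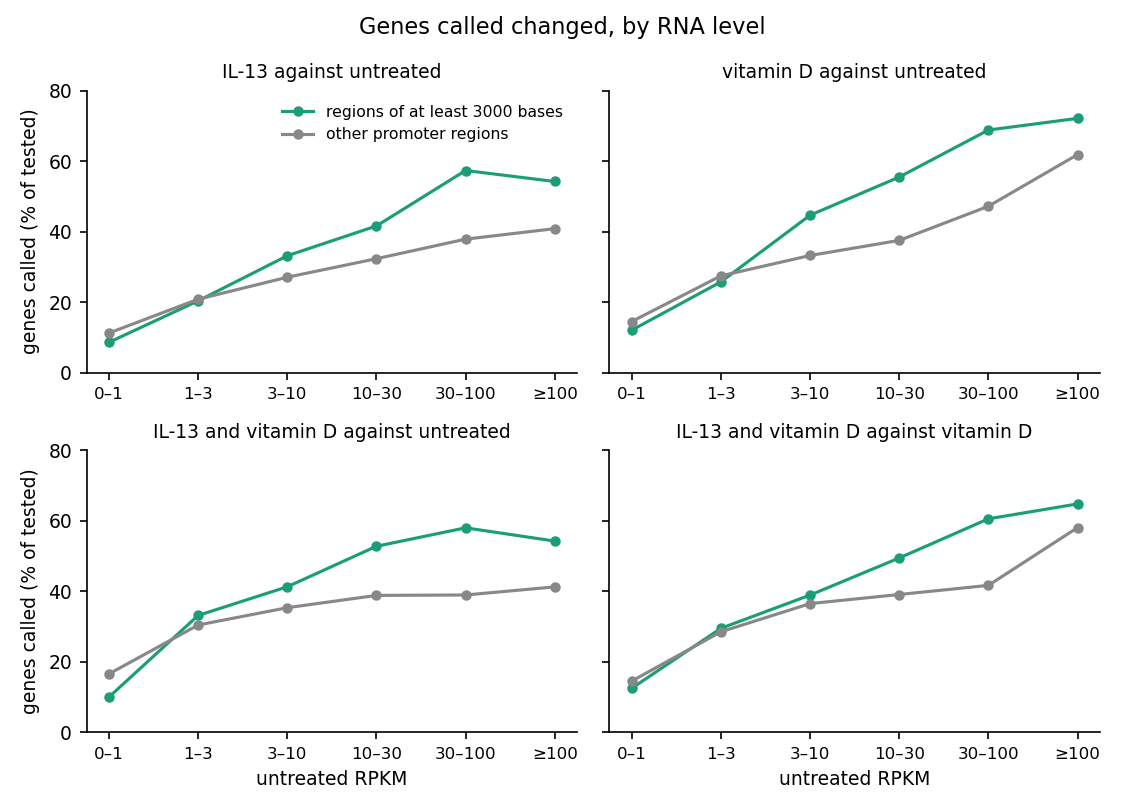
Genes called changed at an adjusted p under 0.05 in the authors' deposited table, in percent of tested genes, by untreated RPKM for the 4 comparisons; green points are genes of members and grey points genes of other promoter regions. The lines lie together between 1 and 3 RPKM (20.4% and 20.8% with IL-13) and stand apart between 30 and 100 RPKM (57.3% and 37.9%).

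The IL-13 response without and with vitamin D can be compared, since the 2 comparisons share no sample. Of 1665 member genes tested in both, 213 were higher in both, 322 were lower in both and 2 had opposite calls. Calls in the same direction made up 80.3% of the calls without vitamin D and 69.0% of those with it. Over all 14766 genes tested in both, these shares were 76.1% and 61.4%.

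Among feedback inhibitors, IL-13 raised 4 and lowered 10 of 22 tested members, and vitamin D raised 12 and lowered 2, by the authors' deposited table. Over all tested genes, 12.3% rose and 14% fell with IL-13, and 17.5% and 15.1% with vitamin D. Over all tested member genes the shares were 15.9% and 23.8%, and 30.2% and 21.3%. The same shares are the background of the list counts that follow. SOCS1 had 4.18 RPKM untreated, 15.7 with IL-13, 5.04 after vitamin D and 18.4 under both agents, so both IL-13 groups were high. Its log2 change with IL-13 was 1.79 in the authors' deposited table (adjusted p = 3.09e-94), the largest rise of any called member gene at or above 1 RPKM. DUSP10, a phosphatase of p38 and JNK kinases, had 26.0, 23.3, 69.1 and 59.1 RPKM and a log2 change of 1.46 with vitamin D in the authors' deposited table, with the adjusted p listed as 0. DUSP4 had 3.03, 1.84, 5.07 and 3.16 RPKM, lowest with IL-13 and highest with vitamin D, and both changes passed the test (log2 −0.70 and 0.79 in the authors' deposited table, adjusted p = 2.01e-18 and 2.11e-34).

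AP-1 and immediate early members were called higher in 13 and lower in 6 of 23 tested with vitamin D, and in 4 and 8 of 23 with IL-13. FOS had 1.24 RPKM untreated, 0.913 with IL-13, 13.8 after vitamin D and 7.04 under both agents. Its vitamin D change of 3.39 (log2) was the largest of the members in the authors' deposited table, with the adjusted p listed as 0. JUNB had 114, 107, 191 and 152 RPKM (log2 0.80 with vitamin D in the authors' deposited table, adjusted p = 3.92e-86). Both AP-1 genes were thus highest with vitamin D alone. The FOS region spanned 3773 bases untreated, 3512 with IL-13, 5016 after vitamin D and 4189 under both agents, and carried no VDR region. ATF3 fell with vitamin D, by 0.78 (log2) in the authors' deposited table (adjusted p = 1.53e-30). SGK1, a serum- and glucocorticoid-induced kinase, had 24.5, 38.0, 11.6 and 24.0 RPKM (log2 0.61 with IL-13 and −1.01 with vitamin D in the authors' deposited table, adjusted p = 1.63e-39 and 3.71e-95).

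Squamous factors had more falls than rises: 7 up and 13 down of 23 with IL-13, and 8 up and 11 down with vitamin D, by the authors' deposited table. TP63 had 50.7 RPKM untreated, 72.3 with IL-13, 37.6 after vitamin D and 58.3 under both agents. It rose with IL-13 (log2 0.49) and fell with vitamin D (log2 −0.37) in the authors' deposited table (adjusted p = 5.43e-53 and 2.56e-36). ID1, an inhibitor of differentiation factors and BMP target, had 150, 91.7, 303 and 183 RPKM, lowest with IL-13 alone and highest with vitamin D alone. BARX2, a homeodomain factor, had 23.5, 12.7, 26.5 and 17.3 RPKM and fell by 0.89 (log2) with IL-13 in the authors' deposited table (adjusted p = 2.09e-58). KLF4 had 84.1, 71.6, 67.7 and 61.2 RPKM and was lower in all 3 treated groups.

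Of 12 growth factor and receptor members, 7 rose and 3 fell with vitamin D, and 1 rose and 6 fell with IL-13. TGFB1 had 29.6, 24.5, 74.1 and 59.6 RPKM and TGFB2 4.42, 4.32, 9.71 and 10.2, both ligands of the TGF-beta receptor. Their log2 changes with vitamin D were 1.37 and 1.18 in the authors' deposited table (adjusted p = 1.17e-192 and 6.55e-139). BMP2, another ligand of the family, had 4.74, 4.73, 13.9 and 12.7 RPKM. All 3 were high in both vitamin D groups, and IL-13 alone left TGFB2 and BMP2 with no call. SMAD3, which carries TGF-beta signals to the nucleus, had 10.9, 6.12, 11.5 and 5.26 RPKM and fell by 0.84 (log2) with IL-13 in the authors' deposited table (adjusted p = 2.88e-75). JAG1, a Notch ligand, had 41.4, 32.2, 26.1 and 23.3 RPKM and was highest in untreated cells.

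Junction members were split, with 7 up and 9 down of 19 with IL-13 and 5 up and 7 down with vitamin D. The desmosomal cadherins DSG3, DSC2 and DSC3 fell with vitamin D by 0.59, 0.56 and 0.57 (log2) in the authors' deposited table (adjusted p = 1.23e-107, 5.30e-88 and 3.20e-73). DSG3 had 437, 505, 279 and 346 RPKM, DSC2 213, 179, 139 and 115, and DSC3 156, 204, 101 and 174. DSC3 and DSG3 were highest with IL-13, DSC2 in untreated cells. Tumour suppressor members gave 4 up and 4 down of 15 with IL-13, and 6 up and 7 down with vitamin D.

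The further genes with the largest IL-13 rises were NABP1, a single-strand DNA-binding protein (5.48 to 16.6 RPKM), SFRP1, a secreted Wnt antagonist (12.9 to 36.5), HS3ST1, a heparan sulfate sulfotransferase (2.84 to 8.02), ALCAM, a cell adhesion molecule (37.3 to 90.4), and VSNL1, a neuronal calcium sensor (15.6 to 36.8). Their log2 changes in the authors' deposited table ran from 1.20 to 1.54. The largest falls were in GLTP, a glycolipid transfer protein (244 to 105 RPKM), FGFBP1, an FGF-binding protein (224 to 101), BARX2, ADORA2B, an adenosine receptor (1.94 to 0.962), SMAD3 and FABP5, an epidermal fatty acid-binding protein (698 to 393). GLTP fell by 1.22 (log2) in the authors' deposited table (adjusted p = 1.87e-221). GLTP was 387 RPKM with vitamin D and 189 with both, so it was highest with vitamin D alone.

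Vitamin D raised FOS most, followed by NET1, a RhoA exchange factor (81.1 to 263 RPKM), BMP2, SH3TC1 (9.14 to 26.2), DUSP10 and TXNRD1, thioredoxin reductase 1 (36.6 to 91.9). The last 5 had log2 changes of 1.38 to 1.75 in the authors' deposited table. It lowered TLL1, a metalloprotease (1.56 to 0.620 RPKM), SGK1, BCL6 (10.03 to 4.88), MAF (11.5 to 6.48), BCL11B (3.05 to 1.49) and FZD8, a Wnt receptor (1.81 to 0.865). SGK1, BCL6, MAF and BCL11B rose with IL-13 alone, by 0.37 to 0.61 (log2) in the authors' deposited table.

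With both agents against untreated cells the largest rises were in DPF3, FOS, HS3ST1, SOCS1, HAS3 and SH3TC1. DPF3, a BAF complex subunit, had 0.122 RPKM untreated, 0.183 with IL-13, 0.249 after vitamin D and 1.16 under both agents, a log2 change of 2.59 in the authors' deposited table (adjusted p = 6.10e-32). HAS3, a hyaluronan synthase, had 5.83, 13.5, 9.87 and 21.8 RPKM and was also highest with both. The falls were in FGFBP1 (224 to 63.4 RPKM), FABP5 (698 to 238), GLUL, glutamine synthetase (54.3 to 22.3), BBC3, the pro-apoptotic protein PUMA (5.21 to 2.23), FZD8 and STC2 (26.5 to 12.1). FGFBP1, FABP5, GLUL, BBC3 and STC2 were lowest with both agents. Adding IL-13 to vitamin D raised SOCS1, DPF3, SFRP1, NABP1, THBS1 and HS3ST1 most and lowered FGFBP1, FABP5, SMAD3, GLTP, FOS and LIPG. THBS1, thrombospondin 1, went from 38.4 RPKM with vitamin D to 116 with both, a log2 change of 1.54 in the authors' deposited table with the adjusted p listed as 0.

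Among the widest members FLRT2, a cell-surface receptor of the fibronectin leucine-rich family, had 7.23, 6.17, 4.86 and 3.49 RPKM, lowest with both agents. It fell by 1.03 (log2) with both agents in the authors' deposited table (adjusted p = 1.96e-59). INHBA and CCND2 fell with vitamin D by 0.37 and 0.34 (log2) in the authors' deposited table (adjusted p = 7.29e-16 and 2.52e-17). TNRC18 had 11.1, 10.2, 9.52 and 8.84 RPKM and RUNX1 3.78, 2.98, 3.88 and 2.87. S100A14 had 1710, 1464, 1789 and 1429 RPKM. RUNX1 and S100A14 were low in both IL-13 groups. In the authors' deposited table RUNX1 fell by 0.35 and S100A14 by 0.24 (log2) with IL-13 (adjusted p = 4.01e-07 and 2.08e-10). ZFP36L1, TFAP2A and IRF2BP2 stayed within 38.9 to 46.2, 32.0 to 37.7 and 22.2 to 25.3 RPKM.

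VDR regions were found more often in the members than in other promoter regions. The gap was smaller in a window of fixed size around the region's centre, which is not its transcription start. With vitamin D, 289 members (21.7%, 95% Wilson interval 19.5% to 24.0%) overlapped a VDR region, where 8.6% of all promoter regions did and 7.10% of other promoter regions. Within 500 bases of the region's centre, a window of equal size, the share was 8.47% (113 members), where 6.02% of all promoter regions and 5.74% of other regions had one. For regions of 2000 to 2999 bases the centre share was 7.30% (288 of 3947), nearer to the members. Per megabase of region the members held 69.0 VDR regions, other promoter regions 45.8 and those of 2000 to 2999 bases 48.2. In the untreated VDR library 59 members (4.42%) had a region, where 1.7% of all promoter regions did, and 51 had one in both. At the centre this was 1.12% (15 members), where 1.14% of all promoter regions had one. Intervals cover counting over regions only, since each factor and treatment has 1 library.

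The VDR regions gathered near the start without being limited to it. Of 247 VDR regions centred in members of a single transcript, 92 lay within 500 bases of the start, 60 farther upstream and 95 farther downstream. This is 98.5 per megabase within 500 bases and 57.2 beyond. For promoter regions of 2000 to 2999 bases the same densities were 70.7 and 33.8, both lower than at the members. The highest VDR enrichment with vitamin D was at TXNRD1 (fold enrichment 91.4, and 39.2 untreated), followed by MIR22HG/WDR81 (80.3 and 50.3) and PABPC1 (55.1 and 24.9). ADM had 45.4 and 13.6. All 4 carried a VDR region before vitamin D was added. Each pair comes from 2 single libraries and is given side by side only.

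Member genes with a VDR region rose with vitamin D in 140 of 354 tested cases (39.5%) and fell in 56 (15.8%). Without one they rose in 367 of 1324 (27.7%) and fell in 301 (22.7%). At other promoter regions with a VDR region 35.9% rose and 8.37% fell of 884, against 15.1% and 15.8% without. The untreated median was 18.9 RPKM with and 13.7 without a VDR region at members, and 8.16 and 6.21 at other regions. The part of RNA level in these shares was not tested. TXNRD1, with the highest enrichment, was among the 6 largest rises, and NET1 had a VDR region of fold enrichment 11.03. FOS, BMP2 and SH3TC1 rose with no VDR region in the member.

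**Figure D5:**
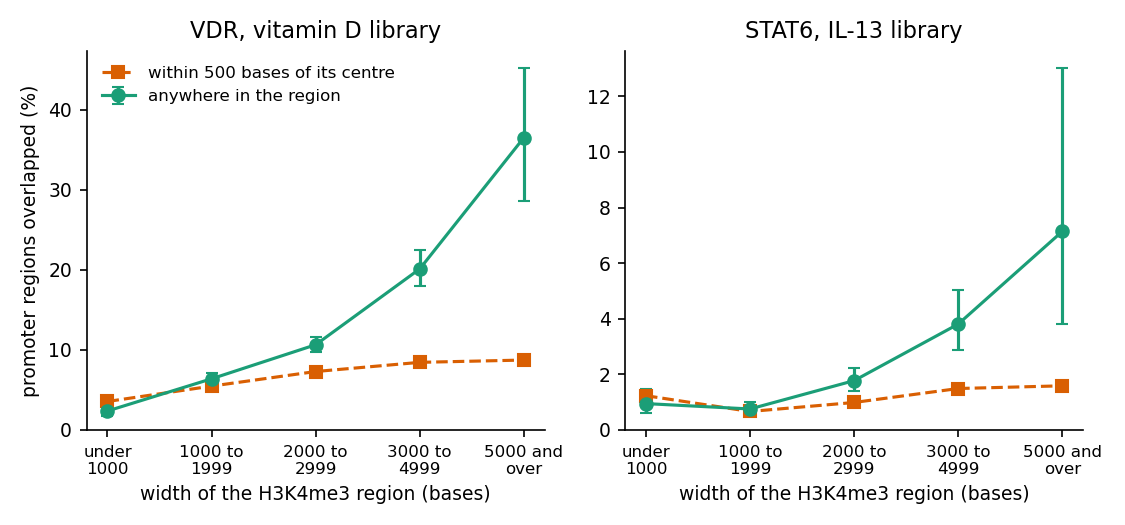
Share of promoter regions, in percent, that overlap a VDR region with vitamin D (left) or a STAT6 region with IL-13 (right), by width of the H3K4me3 region in untreated cells; circles count overlap anywhere, with 95% Wilson intervals, and squares count overlap within 500 bases of the centre. Overlap anywhere reaches 36.5% for VDR and 7.14% for STAT6 at 5000 bases and over, whereas overlap at the centre is 8.73% and 1.59%. Under 1000 bases the centre window extends beyond the region, so for VDR the share at the centre (3.55%) exceeds overlap anywhere (2.37%).

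STAT6 regions were rare. With IL-13 they overlapped 55 members (4.12%, 95% Wilson interval 3.18% to 5.33%), where 1.44% of all promoter regions were overlapped, and 1 member in the untreated library, where 0.17% were. At the centre the share was 1.499% (20 members), where 0.941% of all promoter regions and 0.988% of those of 2000 to 2999 bases had one. Of 39 STAT6 regions centred in members of a single transcript, 9 lay within 500 bases of the start, or 9.63 per megabase, and 11.1 per megabase lay beyond. For promoter regions of 2000 to 2999 bases these densities were 9.61 and 5.47. BCL6 had the highest fold enrichment, 15.8, followed by SOCS1 (15.3), JUNB (11.6) and RBM47, an RNA-binding protein (11.4). BCL6 had 10.03, 13.0, 4.88 and 7.93 RPKM, high with IL-13 alone, and its printed promoter is the one of the 6 with a TTCNNNGAA match. SOCS1, with the next STAT6 enrichment, has no such match in its window. Member genes with a STAT6 region rose with IL-13 in 18 of 77 tested cases (23.4%) and fell in 18. Those without rose in 249 of 1600 (15.6%) and fell in 381 (23.8%). At other promoter regions with a STAT6 region 40 of 135 rose (29.6%) and 15 fell (11.1%). The difference between members and other regions was not tested. The untreated median was 21.8 RPKM with and 14.4 without a STAT6 region at members, and 8.70 and 6.36 at other regions. The part of RNA level in these shares was not tested either.

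Both factors, each with its own agent, were found at 23 members. The 8 widest were ZFP36L1, BHLHE40, AHNAK, JUNB, NEAT1, ZNF462, MIR21 and GJB2. BHLHE40 is a circadian repressor, NEAT1 the scaffold RNA of paraspeckles and GJB2 the gap junction protein connexin 26. At NEAT1 the fold enrichment was 7.91 for STAT6 and 13.0 for VDR, and at JUNB 11.6 and 4.57. No library mapped either factor under both agents, so joint occupancy was not measured.

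At the genes that moved most, the marks did not all move with the RNA. SOCS1 had H3K4me3 widths of 3422, 3540, 3298 and 4118 bases in the untreated, IL-13, vitamin D and combined libraries. Its highest H3K27ac fold enrichment was 21.3, 24.5, 16.8 and 19.8, against member medians of 24.2, 17.2, 19.6 and 17.9, so it stood above the median in both IL-13 libraries and below it in the others. THBS1 had widths of 3854, 4675, 4156 and 5000 bases and was widest in the IL-13 libraries. GLTP, which fell with IL-13, had 3013, 2385, 2682 and 2932 bases, and FGFBP1 3276, 2636, 2989 and 2981. NABP1, which rose with IL-13, had 4351, 2828, 4390 and 4945 bases, narrower in the IL-13 library and wider with both. Each value rests on 1 library, and no test of these widths is possible.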

How the data were processed

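Chromatin and RNA of EPC2 cells were measured under 4 treatments. Per the submitters' processing notes, reads were handled with Trim Galore, STAR, SAMtools, Bowtie and MACS2 on hg19 (GRCh37), with no versions given. The authors deposited 1 RPKM value per gene and treatment, so depth and spread are unknown, with their log2 fold change, p-value and adjusted p-value per comparison. No source used here names the method of those tests. The deposited peak tables list 1 summit per row with pileup signal, fold enrichment as a ratio, and −log10 of the p-value and of the q-value, per the file headers; peaks were called per library. Fold enrichments and pileups are the authors' own values and were used only within a library or side by side. An authors' table named for IL-13 against both agents holds vitamin D against both: the correlation of its deposited log2 values is 0.973 with the RPKM ratio of combined treatment over vitamin D, and 0.0095 when IL-13 is the divisor. It was used as the former.

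Members and gene lists were chosen with earlier results of these data known. Regions are unique chromosome, start and end; rows without a q-value were left out. No source used here gives the authors' definition of a promoter. Overlap means at least 1 shared base, tested on simulated regions. A treated width is that of the widest overlapping region. Adjusted p-values of 1 were taken as not tested. Of 23533 RNA rows, 4 with a repeated name were left out, and 10 members had no gene in the tables, NR3C1 among them. Labels do not say that RNA samples are separate cultures, so p-values measure the spread between these samples, which may be technical. RefSeq promoters (GRCh38.p14) were matched by accession and then symbol for coding genes; whether each start is that of the hg19 transcript was not tested. For genes with no promoter region, and for members of 5000 bases or more, under 80% matched and the promoter check is void. Listed genes absent under their current symbol were looked up by older symbols.

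Named are the 12 widest members; the 3 just above and 3 just below the limit; per comparison the 6 largest rises and falls among called genes with at least 1 RPKM in a group; the 5 highest in RPKM; the 5 widest under 1 RPKM; the 8 widest with both factors; listed members; the 5 narrowest after treatment; and up to 5 lacking acetylation. Other genes named were chosen after their values were seen. Alternatives varied the width limit, region joining, overlap, fold enrichment, adjusted p, fold change, level filter and pseudocount. Python 3.11.15, pandas 2.3.3, numpy 2.4.6, scipy 1.17.1 and matplotlib 3.10.9 were used. Some listed members are not reported here.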

Additional observations from a re-analysis of the deposited data

How the results depend on the processing

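Of 77 alternatives, 37 stayed within the margin of the value reported and 40 did not; the balance of rises and falls turned in 2 cases: calls that were higher made up 45.0% as reported and 52.2% at 2000 bases for both agents against vitamin D, and 51.3% and 46.8% at 4000 bases for both agents against untreated cells. The margin was a factor of 1.5 for counts and medians and the 95% Wilson interval for shares. Counting genes with an adjusted p of 1 as tested could not alter the number called. The log2 RPKM ratio, from the same RNA samples, had the sign of the deposited change for each called member gene at pseudocounts of 0.1 and 1. The number of members was 5281 at 2000 bases and 355 at 4000 bases, against 1334. Among the same number of widest regions, an alternative added after the data were seen, 85.1% (IL-13), 87.0% (vitamin D) and 86.4% (both) of members recurred. With at least 50% of the member covered, H3K9ac marked 78.8%, 73.2%, 78.8% and 75.2% (untreated, IL-13, vitamin D, both) and H3K27ac 96.3%, 97.8% and 97.6% in the treated libraries. At a fold enrichment of at least 10, H3K9ac marked 42.2%, 24.7%, 33.1% and 26.8%, and H3K27ac 98.7%, 92.4%, 96.7% and 94.2%. STAT6 with IL-13 was at 1.499% by the centre window and 0.300% at a fold enrichment of 10, and untreated STAT6 at 0 by both; VDR with vitamin D was at 8.47% and 4.57%, and untreated VDR at 1.12% and 0.975%. Genes called in the 4 comparisons, in the order of the report, numbered 60, 102, 160 and 84 at a fold change of at least 1.5, 1999, 2590, 2438 and 2490 at 2000 bases, and 221, 257, 248 and 237 at 4000 bases, the width-limit sets from more and fewer genes. As shares of tested genes these width limits gave 31.6%, 40.9%, 38.2% and 39.5%, and 49.6%, 57.6%, 54.7% and 53.9%. No paired analysis was possible because the tables hold 1 value per treatment, and for the same reason no replicate could be left out. Depth of the RNA is unknown, and each ChIP result rests on 1 library.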
